A study of Homo sapiens with 16 samples.

Results

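The genes described here are 135 long intergenic non-coding RNA (lincRNA) genes that were expressed in both of 2 human pancreatic ductal adenocarcinoma (PDAC) cell lines, PANC-1 and BxPC3. A gene was a member when its deposited biotype was lincRNA and its level was at least 1 FPKM (fragments per kilobase of transcript scaled by library size) in at least 4 of the 8 libraries of each line. Genes named SNHG and the genes GAS5, ZFAS1, DANCR and EPB41L4A-AS1, which carry snoRNAs in their introns, were left out. Of 58735 genes listed, 7629 were lincRNA genes, 140 of those passed the level rule in both lines, and 5 of these were left out by name. The level of a member therefore belongs to its selection and is given as a description.

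Both lines were cultured with gemcitabine or as controls, and RNA was sequenced after poly-A enrichment. Gemcitabine is a deoxycytidine analogue that is built into DNA and stops its synthesis, and it is a standard drug for PDAC. The 4 groups were PANC-1 with gemcitabine, PANC-1 control, BxPC3 with gemcitabine and BxPC3 control, with 4 libraries each. No source used here states the dose, the exposure time, what the control cells received or whether replicates were separate cultures. The p-values therefore measure library-to-library spread, part or all of which could be technical. PANC-1 and BxPC3 are established lines, each from 1 tumour, so a difference between them is a difference between 2 lines.

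Each library held 22152034 to 37777222 reads in listed genes, so 3 reads over 1 kb of transcript amounted to between 0.0803 and 0.138 FPKM. SMAD4, which is deleted in BxPC3, had no read in any BxPC3 library and 3.03 to 3.94 FPKM in gemcitabine-treated PANC-1 against 3.64 to 4.04 FPKM in PANC-1 controls, as the line labels require. The epithelial keratins KRT8, KRT18 and KRT19 and EPCAM were present in all 16 libraries, whereas CDH1 was 0.481 to 0.628 FPKM in gemcitabine-treated PANC-1 and 0.828 to 0.977 FPKM in PANC-1 controls. The leukocyte gene PTPRC and the fibroblast gene COL1A2 stayed at or under 0.0271 FPKM in every library, but CD3E was at 0.277 to 0.344 FPKM in gemcitabine-treated BxPC3 and 0.281 to 0.364 FPKM in BxPC3 controls. The collagen gene COL1A1 was at 7.41 to 11.1 FPKM with gemcitabine and 10.8 to 11.9 FPKM in controls in PANC-1, and at 2.32 to 2.61 FPKM with gemcitabine and 1.60 to 1.91 FPKM in controls in BxPC3. Of the endothelial genes in BxPC3, CDH5 was at 5.40 to 5.999 FPKM with gemcitabine and 0.530 to 0.654 FPKM in controls, PECAM1 at 0.0846 to 0.187 FPKM with gemcitabine and 0.632 to 0.857 FPKM in controls, and VWF at 0.0929 to 0.132 FPKM with gemcitabine and 0.131 to 0.167 FPKM in controls. In the same line the acinar genes PRSS1 and CEL were at 13.6 to 15.0 and 5.75 to 6.43 FPKM with gemcitabine and 1.63 to 2.11 and 18.4 to 20.6 FPKM in controls; their part in the results was not tested. PANC-1 gemcitabine replicate 1 stood apart from its group by base composition: its genes of high GC content lay 0.45 above and its genes of low GC content 0.42 below the group on the log2 scale, while the members' median lay at -0.01. Calls in PANC-1 of named members that change without that library are given with and without it.

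LincRNAs are transcribed by RNA polymerase II, capped and mostly polyadenylated, but encode no known protein. A few have described functions as scaffolds of nuclear bodies, as decoys for RNA-binding proteins or as precursors of microRNAs. Many others are products of promoters shared with a protein-coding gene, and most have no described role. Of the 135 members, 77 carried only a clone name in the deposited tables, 26 were named LINC and 18 were named for a neighbour (11 with AS, 7 with DT for divergent transcript).

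The members' gene structure, read from GENCODE release 29 on GRCh38, was compact. The median transcribed length was 1331 bases (range 160 to 22767), against 5084 bases for protein-coding genes expressed in both lines, and 51 members had a single exon. Despite the name intergenic, 93 members lay within 10 kb of a protein-coding gene, 29 overlapped the body of one, and 49 started head to head with one, meaning on the opposite strand with starts at most 1 kb apart (median distance 235 bases, range 4 to 963). Another gene's exons covered part of 43 members' exons, and no source used here states whether counting used strand, so reads in those stretches cannot be told apart. LINC01089, named here after its values were seen, shared 51.3% of its exon bases in this way.

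In PANC-1 the shares of these lincRNAs that rose and fell with gemcitabine were close to those of all genes, whereas in BxPC3 many more fell than rose. A gene was called when limma's adjusted p was under 0.05 over all genes tested in that line, on log2(FPKM + 1), a scale that understates changes of genes near 1 FPKM. In PANC-1, 25 members rose, 38 fell and 72 were not called, where 20.7% of the 12508 genes tested rose and 24.0% fell (44.8% in either direction). The members' shares were 18.5% and 28.1%, close to the background, and the median log2 change was -0.12 against -0.02. In BxPC3, 19 members rose, 74 fell and 42 were not called, where 37.3% of the 12215 genes tested rose and 36.1% fell (73.4% in either direction). The members' shares were 14.1% higher and 54.8% lower, with a median log2 change of -0.28 against 0.00 for all genes tested. Without PANC-1 gemcitabine replicate 1, 35 members rose and 52 fell in PANC-1, against 32.8% and 37.0% of all genes, and 62 of the 63 calls were shared with the full set.

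Most called changes were small on the log2(FPKM + 1) scale, which understates changes of genes near 1 FPKM. The counts at a log2 change of at least 1 therefore understate how many members changed as much in FPKM. The shares of all genes beside them were not matched for level. Among the called members of PANC-1 the median log2 change was 0.49 for the genes that rose and -0.42 for those that fell, and in BxPC3 the medians were 0.45 and -0.51. A log2 change of at least 1 was seen for 3 higher and 2 lower members in PANC-1 (3.21% and 1.06% of all genes) and for 5 higher and 6 lower members in BxPC3 (4.40% and 4.02% of all genes). In 23 members all 4 gemcitabine-treated PANC-1 libraries lay above all 4 controls and in 34 below, where the shares of all genes were 21.3% and 24.5%. In BxPC3 these counts were 15 and 67, where the shares of all genes were 34.3% and 33.2%. Because 5 members in PANC-1 and 15 in BxPC3 reached 1 FPKM in 4 libraries through 1 treatment group only, those members had to differ, their groups being on either side of 1 FPKM by the rule. Of the members described below, these were AL132712.1, AC019069.1, PICART1 and MIR210HG in PANC-1 and MIR210HG, LINC01770, AL592295.4, AL831711.1, AC006504.5 and RASAL2-AS1 in BxPC3, whose values in that line are a description. The counts over members are a description and not a test of the class.

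Antisense RNA genes, another non-coding class selected by the same level rule, gave different counts, to be read like those that follow against the 20.7% of all genes that rose and 24.0% that fell in PANC-1 and the 37.3% and 36.1% in BxPC3. Of 173 expressed antisense genes, 44 rose and 41 fell in PANC-1, and 48 rose and 62 fell in BxPC3, with median log2 changes of 0.00 and -0.02. Among the 82 members at 1 FPKM or more in all 16 libraries, 12 rose and 26 fell in PANC-1, and 13 rose and 44 fell in BxPC3. In PANC-1, 11 of the 51 single-exon members rose and 9 fell, and 14 of the 84 members with several exons rose and 29 fell. In BxPC3 these counts were 8 and 27 of 51, and 11 and 47 of 84.

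**Figure D1:**
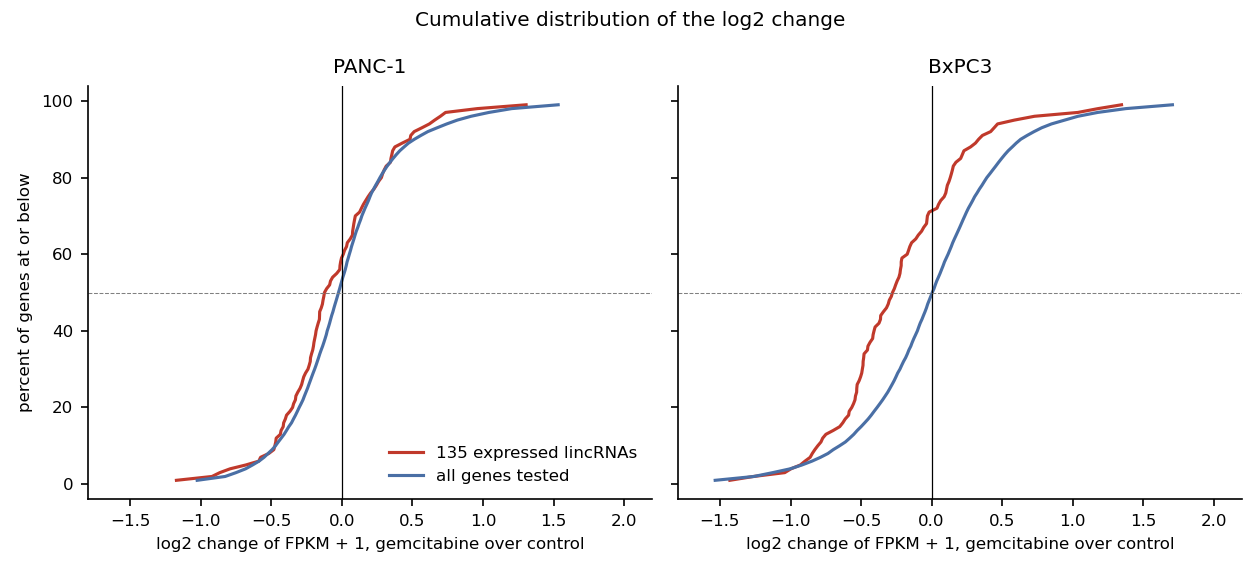
Cumulative distribution of the log2 change of FPKM + 1, gemcitabine over control, in PANC-1 (left) and BxPC3 (right); the x axis is the log2 change, the y axis the percent of genes at or below it, drawn from the 1st to the 99th percentile, in red for the 135 lincRNAs and in blue for all genes tested. In BxPC3 the lincRNA curve lies left of the other over most of its height, with medians of -0.28 and 0.00, while in PANC-1 the curves run close, with medians of -0.12 and -0.02.

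The summed FPKM of the members was lower with gemcitabine in both lines, but in PANC-1 their share of reads was not. The 135 members added up to 583 ± 11.6 FPKM in gemcitabine-treated PANC-1 and 617 ± 6.79 FPKM in PANC-1 controls, and to 497 ± 5.06 FPKM in gemcitabine-treated BxPC3 and 625 ± 25.3 FPKM in BxPC3 controls (SD, n = 4 each). The libraries of the 2 treatments did not overlap in either line. As a percent of all reads, the members took 0.173% ± 0.0136 in gemcitabine-treated PANC-1 and 0.174% ± 0.00180 in PANC-1 controls, with treated replicate 1 below and the other 3 above every control. In BxPC3 these shares were 0.152% ± 0.00445 with gemcitabine and 0.195% ± 0.00572 in controls, without overlap. In bulk RNA a lower level in every cell and fewer cells that express the gene cannot be told apart. NORAD alone made up 9.62% of the members' FPKM in gemcitabine-treated PANC-1 against 8.52% in PANC-1 controls, and 14.5% in gemcitabine-treated BxPC3 against 20.5% in BxPC3 controls. Without NORAD the sums were 527 ± 5.88 FPKM with gemcitabine and 564 ± 7.62 FPKM in controls in PANC-1, and 425 ± 8.15 FPKM with gemcitabine and 497 ± 29.5 FPKM in controls in BxPC3.

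**Figure D2:**
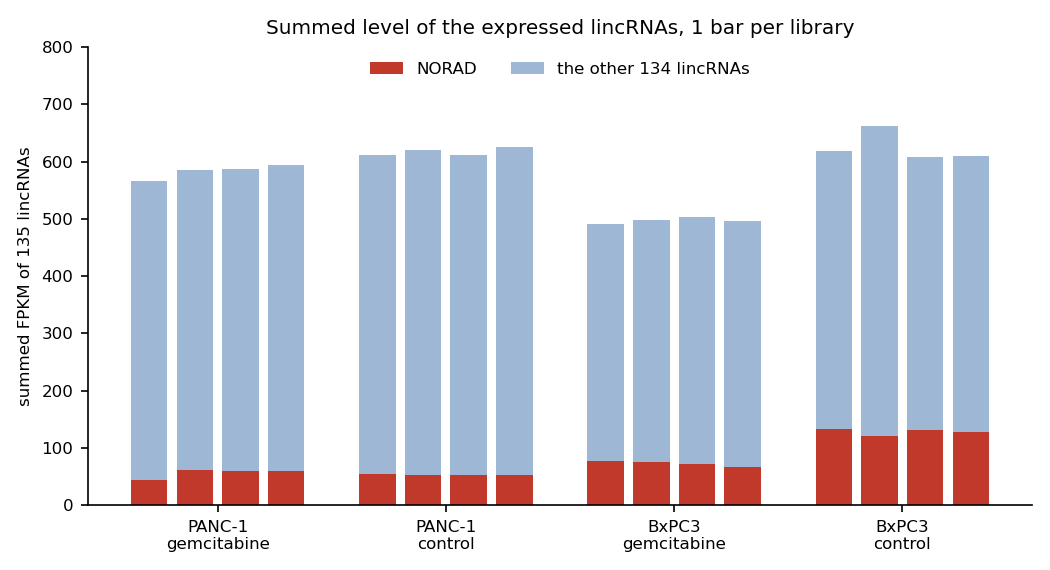
Summed FPKM of the 135 lincRNAs in each of the 16 libraries, 1 bar per library in replicate order, grouped as PANC-1 gemcitabine, PANC-1 control, BxPC3 gemcitabine and BxPC3 control; red is NORAD and blue the other members. The gemcitabine-treated BxPC3 bars reach 491 to 504 FPKM and the BxPC3 controls 608 to 662 FPKM.

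Levels were low for most members and their order differed between the lines. The mean over 8 libraries was at least 10 FPKM for 10 members in PANC-1 and 8 in BxPC3, and under 2 FPKM for 42 and 54 members. NORAD ranked first in both lines, at 54.3 FPKM in PANC-1 and 100.01 FPKM in BxPC3. The next ranks were EBLN3P, AC009414.2 and AC015922.2 in PANC-1 and AC026401.3, AP005233.2 and AC004816.1 in BxPC3, so that of the highest 8 members in each line only NORAD, AC092171.2 and MALAT1 were in both lists. Across the 135 members the control levels of the lines had a Spearman correlation of 0.36, a description over genes that share libraries. The PANC-1 control mean was over 2 times the BxPC3 control mean for 32 members and under 0.5 times it for 27, set side by side from tables that were normalized separately. AP006621.3, named after its values were seen, was at 7.78 times and PVT1 at 6.68 times, the extremes on the PANC-1 side, and PICART1 at 0.149 times was that on the BxPC3 side.

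The level rule cut through a continuum. The members nearest the threshold, by their 4th highest library, were USP46-AS1 at 1.01 FPKM and LINC01560 at 1.03 FPKM in PANC-1 and AP001362.2 at 1.01 FPKM and AC079921.2 at 1.01 FPKM in BxPC3. The lincRNAs just below it were AC004233.3 at 0.996 FPKM and OGFRP1 at 0.952 FPKM in PANC-1, and LINC01521 at 0.976 FPKM and LINC01123 at 0.910 FPKM in BxPC3. In PANC-1, USP46-AS1 and LINC01560 were not called with all libraries (log2 changes 0.23 and 0.36). Without gemcitabine replicate 1 both were called higher there (0.29 and 0.43, adjusted p = 0.00528 and 0.0469).

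NORAD is a cytoplasmic RNA induced by DNA damage that binds the PUMILIO proteins and is needed for a stable chromosome number. It lies on chr20:36045622-36050960 as 1 exon of 5339 bases. NORAD had 44.4, 61.5, 60.1 and 58.7 FPKM in the gemcitabine-treated PANC-1 libraries, against 53.8, 51.9, 52.7 and 51.7 FPKM in the PANC-1 controls. Replicate 1 of the treated PANC-1 libraries was the lowest of all 8 and the other 3 the highest. The change in PANC-1 was not called with all libraries (log2 change 0.08, adjusted p = 0.533) and was called higher without replicate 1 (log2 change 0.19, adjusted p = 0.000197). The RNA had 76.8, 74.6, 71.0 and 66.2 FPKM in the gemcitabine-treated BxPC3 libraries, against 133, 121, 130.4 and 127 FPKM in the BxPC3 controls. The BxPC3 groups were far apart, with every treated library below every control (log2 change -0.82, SE 0.05, adjusted p = 3.59e-07), a level 0.564 times that of controls. The difference between the lines was called (difference 0.90 ± 0.12 (SE), adjusted p = 8.78e-06).

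TP53TG1 had the most negative log2 change of FPKM + 1 of all members in both lines. By the ratio of the means, AL132712.1 was lower in PANC-1 (0.307 times), and AL831711.1, MIR210HG and AL592295.4 were lower in BxPC3 (0.161, 0.208 and 0.209 times). TP53TG1 is described as an RNA induced under cellular stress. It lies on chr7:87325225-87345515 and in GENCODE starts 166 bases from CROT, the gene of a peroxisomal carnitine acyltransferase, on the opposite strand. TP53TG1 had 2.74, 2.24, 2.03 and 2.55 FPKM in the gemcitabine-treated PANC-1 libraries, against 7.22, 6.73, 7.81 and 8.25 FPKM in the PANC-1 controls. Its level was 3.26, 3.53, 3.63 and 3.68 FPKM in the gemcitabine-treated BxPC3 libraries, against 13.2, 16.2, 11.8 and 11.99 FPKM in the BxPC3 controls. All treated libraries of a line lay below all its controls. The changes were -1.33 ± 0.09 in PANC-1 and -1.65 ± 0.09 in BxPC3 on the log2 scale (SE; adjusted p = 5.14e-06 and 7.82e-08), or 0.319 and 0.265 times the control mean. Other genes' exons cover 32.6% of its exon bases, none of them protein-coding. The promoter window is shown because it holds the start sites of both genes, 172 bases apart, and because TP53TG1 and CROT fell together. RefSeq on GRCh38.p14 places it at chr7:87345443-87345742, minus strand, with the first transcribed base at position 251; capitals mark GGGCGG (the GC box bound by SP1-type factors) and CCAAT (the box bound by NF-Y) on either strand.
TP53TG1: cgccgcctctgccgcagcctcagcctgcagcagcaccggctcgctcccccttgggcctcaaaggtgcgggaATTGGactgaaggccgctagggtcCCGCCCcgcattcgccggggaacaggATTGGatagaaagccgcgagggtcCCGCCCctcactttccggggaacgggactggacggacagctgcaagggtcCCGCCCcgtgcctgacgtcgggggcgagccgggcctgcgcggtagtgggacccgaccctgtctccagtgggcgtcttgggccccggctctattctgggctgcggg
The GC boxes began at positions 96, 146 and 196 and the CCAAT boxes at 72 and 122, so both recurred with a spacing of 50 bases. CROT had 3.01 ± 0.494 FPKM with gemcitabine and 4.38 ± 0.138 FPKM in controls (SD, n = 4 each; log2 change -0.43, adjusted p = 0.00469) in PANC-1. In BxPC3 CROT had 3.55 ± 0.248 FPKM with gemcitabine and 4.96 ± 0.162 FPKM in controls (SD, n = 4 each; log2 change -0.39, adjusted p = 4.06e-05).

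APTR fell in both lines with the gene next to it. It is a nuclear RNA described as a repressor of CDKN1A, the gene of the cell cycle inhibitor p21, and it starts 178 bases from RSBN1L. APTR had 2.81, 2.99, 2.62 and 3.07 FPKM in the gemcitabine-treated PANC-1 libraries, against 5.599, 5.23, 5.57 and 6.07 FPKM in the PANC-1 controls. The same RNA had 2.21, 2.36, 2.55 and 2.69 FPKM in the gemcitabine-treated BxPC3 libraries, against 3.94, 4.16, 3.84 and 3.79 FPKM in the BxPC3 controls. Treated libraries and controls did not overlap in either line, and the fall was larger in PANC-1 (log2 change -0.77, adjusted p = 1.72e-05) than in BxPC3 (-0.52, adjusted p = 1.03e-05; difference -0.26 ± 0.08 (SE), adjusted p = 0.0126). RSBN1L had 3.57 ± 0.516 FPKM with gemcitabine and 5.27 ± 0.166 FPKM in controls (SD, n = 4 each; log2 change -0.46, adjusted p = 0.00235) in PANC-1. In BxPC3 RSBN1L had 3.55 ± 0.230 FPKM with gemcitabine and 4.72 ± 0.140 FPKM in controls (SD, n = 4 each; log2 change -0.33, adjusted p = 0.000106). The RefSeq window at chr7:77696216-77696515 (GRCh38.p14, minus strand) is printed with the same motifs in capitals, to be set beside that of TP53TG1.
APTR: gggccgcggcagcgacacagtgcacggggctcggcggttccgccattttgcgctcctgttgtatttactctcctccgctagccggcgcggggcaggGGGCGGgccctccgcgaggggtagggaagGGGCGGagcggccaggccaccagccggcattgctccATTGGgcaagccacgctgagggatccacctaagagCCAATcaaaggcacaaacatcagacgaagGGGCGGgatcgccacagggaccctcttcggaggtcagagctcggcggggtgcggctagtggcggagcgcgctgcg
It held 3 GC boxes, at positions 97, 126 and 226, and 2 CCAAT boxes, at 162 and 197.

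LINC01770 starts 288 bases from VWA1, which encodes a matrix protein with a von Willebrand factor A domain, and both fell in both lines. LINC01770 had 3.57, 2.65, 2.63 and 2.74 FPKM in the gemcitabine-treated PANC-1 libraries, against 7.38, 8.65, 11.1 and 7.29 FPKM in the PANC-1 controls. It was far lower in BxPC3, with 0.252, 0.401, 0.694 and 0.309 FPKM in the gemcitabine-treated BxPC3 libraries, against 1.47, 1.36, 1.95 and 1.35 FPKM in the BxPC3 controls. No treated library reached a control of its line, which in BxPC3 the level rule fixed. The log2 changes were -1.29 in PANC-1 and -0.84 in BxPC3 (adjusted p = 7.33e-05 and 4.47e-05), while the ratios of the means were 0.336 and 0.270. The difference between the lines (difference -0.45 ± 0.18 (SE), adjusted p = 0.0444) therefore turned its sign when a smaller pseudocount or the recovered reads were used, and no direction can be drawn from it. VWA1 had 63.1 ± 22.6 FPKM with gemcitabine and 106 ± 7.96 FPKM in controls (SD, n = 4 each; log2 change -0.80, adjusted p = 0.00937) in PANC-1, and its log2 change without replicate 1 was -1.02. In BxPC3 VWA1 had 26.9 ± 1.31 FPKM with gemcitabine and 51.8 ± 4.35 FPKM in controls (SD, n = 4 each; log2 change -0.92, adjusted p = 3.97e-07).

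In all, 29 members fell in both lines, against 12.8% of the 10670 genes tested in both, and 6 rose in both, against 12.7%. Both counts include members whose direction in a line was fixed by the level rule. Among those that fell, examples are MIR210HG in both lines, AL132712.1 in PANC-1, and LINC01770 and AL592295.4 in BxPC3. Among those that rose, RASAL2-AS1 was such a case in BxPC3. The log2 change was more negative in BxPC3 for 19 of the 29, with medians of -0.43 in PANC-1 and -0.54 in BxPC3. The difference between lines was called for 12 of them, 9 with the larger fall in BxPC3, where 52.1% of all 14053 genes tested were called. The 9 include members whose fall in BxPC3 the level rule fixed, such as MIR210HG and AL592295.4. They also include TP53TG1, whose call for the difference was lost in 16 alternative settings. LINC02298 had 1.53, 2.002, 1.37 and 0.898 FPKM in the gemcitabine-treated PANC-1 libraries, against 3.04, 3.06, 3.11 and 3.69 FPKM in the PANC-1 controls. It also had 3.40, 3.45, 3.095 and 3.55 FPKM in the gemcitabine-treated BxPC3 libraries, against 10.8, 12.1, 10.7 and 10.9 FPKM in the BxPC3 controls. No treated library overlapped a control in either line (log2 changes -0.80 in PANC-1 and -1.47 in BxPC3, adjusted p = 0.00103 and 4.61e-09). LINC02035, a single-exon gene of 5476 bases, had 1.13, 1.56, 1.73 and 1.83 FPKM in the gemcitabine-treated PANC-1 libraries, against 2.80, 2.62, 2.63 and 3.14 FPKM in the PANC-1 controls. The gene had 1.92, 1.74, 1.75 and 1.70 FPKM in the gemcitabine-treated BxPC3 libraries, against 5.53, 5.47, 5.28 and 5.57 FPKM in the BxPC3 controls. The groups were apart in both lines, with the tightest replicates in BxPC3 (log2 changes -0.57 and -1.22, adjusted p = 0.00121 and 4.26e-09).

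Further members that fell in both lines were close to developmental genes or had a descriptive name. MNX1-AS1 starts 154 bases from the homeobox gene MNX1 and averaged 2.08 ± 0.637 FPKM with gemcitabine and 3.06 ± 0.383 FPKM in controls in PANC-1 and 3.56 ± 0.297 FPKM with gemcitabine and 8.28 ± 0.284 FPKM in controls in BxPC3 (log2 changes -0.42 and -1.03, adjusted p = 0.0338 and 6.64e-08). In PANC-1 its groups overlapped and the call was lost without gemcitabine replicate 2, 3 or 4 or control replicate 2, 3 or 4, whereas in BxPC3 they were apart and MNX1 itself fell, with 2.98 ± 0.255 FPKM with gemcitabine and 4.91 ± 0.345 FPKM in controls (SD, n = 4 each; log2 change -0.57, adjusted p = 1.38e-05). EBLN3P, a transcribed remnant of an ancient bornavirus insertion, averaged 17.1 ± 3.097 FPKM with gemcitabine and 23.7 ± 0.709 FPKM in controls in PANC-1 and 3.73 ± 0.279 FPKM with gemcitabine and 6.12 ± 0.434 FPKM in controls in BxPC3, with no overlap (log2 changes -0.47 and -0.59, adjusted p = 0.0131 and 8.26e-06). BAIAP2-DT, divergent from the gene of an actin-regulating adaptor, averaged 9.75 ± 1.65 FPKM with gemcitabine and 13.2 ± 0.739 FPKM in controls in PANC-1 and 3.03 ± 0.196 FPKM with gemcitabine and 5.89 ± 0.436 FPKM in controls in BxPC3 (log2 changes -0.41 and -0.77, adjusted p = 0.0107 and 8.76e-07). BAIAP2 itself rose in PANC-1 (log2 change 0.35, adjusted p = 0.0259) and had a log2 change of 0.03 in BxPC3. In PANC-1 replicate 1 was the highest treated library for BAIAP2-DT and the lowest for EBLN3P, and without it the log2 changes were -0.51 and -0.33, both still called, and the difference between lines for EBLN3P became called (0.25, adjusted p = 0.005). LINC00847 had log2 changes of -0.34 in PANC-1 and -0.93 in BxPC3, LINC01836 of -0.87 and -0.79, and AL132712.1 of -0.91 and -0.43, all called and without overlap. None of these 3 has a role that can be given here. The lack of overlap of AL132712.1 in PANC-1 was fixed by the level rule, which it passed there through its controls alone.

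AC009414.2, known as CRIM1-DT, fell to 0.502 times the control mean in PANC-1. It had 13.0, 9.71, 10.9 and 11.3 FPKM in the gemcitabine-treated PANC-1 libraries, against 21.99, 23.2, 20.9 and 23.4 FPKM in the PANC-1 controls. CRIM1, the gene of a transmembrane regulator of bone morphogenetic proteins that starts 812 bases away, had 68.6 ± 0.9996 FPKM with gemcitabine and 91.2 ± 4.26 FPKM in controls (SD, n = 4 each; log2 change -0.40, adjusted p = 0.000285) in PANC-1. In BxPC3 AC009414.2 had 3.51, 2.33, 2.15 and 2.87 FPKM in the gemcitabine-treated BxPC3 libraries, against 5.17, 6.62, 3.69 and 3.15 FPKM in the BxPC3 controls. Those groups overlapped, the call (log2 change -0.58, adjusted p = 0.0207) was lost without control replicate 1 or gemcitabine replicate 2 or 3, and CRIM1 rose there (log2 change 0.27). The neighbours AL592295.4 and AL831711.1 on chromosome 1, 11019 bases apart, fell in BxPC3 (log2 changes -1.04 and -0.94, adjusted p = 5.76e-05 and 1.2e-05). Both passed the level rule there through their controls alone, which fixed the direction, so these values are a description. They were near the limit of detection with gemcitabine, with 51 and 16 reads over the 4 treated BxPC3 libraries against 240 and 99 reads in the controls.

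The 6 members that rose in both lines were AC002401.4, AL161431.1, AC015912.3, AL365203.2, AC092171.2 and RASAL2-AS1, the last of these named after its values were seen. AC002401.4, a single-exon gene of 583 bases on chr17:50094065-50094647, was the member with the largest rise in PANC-1. It had 7.97, 8.495, 9.41 and 8.69 FPKM in the gemcitabine-treated PANC-1 libraries, against 1.21, 0.961, 1.09 and 1.74 FPKM in the PANC-1 controls. Levels were 10.1, 9.45, 9.91 and 9.06 FPKM in the gemcitabine-treated BxPC3 libraries, against 2.70, 5.09, 3.21 and 3.12 FPKM in the BxPC3 controls. Treated libraries were between 7.97 and 10.1 FPKM in both lines and lay above every control, and the controls were lower in PANC-1 (log2 changes 2.11 in PANC-1 and 1.26 in BxPC3, adjusted p = 1.07e-06 and 1.2e-05). It ends 90 bases before PDK2, a pyruvate dehydrogenase kinase gene on the same strand, which fell in BxPC3, with 0.986 ± 0.0280 FPKM with gemcitabine and 2.27 ± 0.174 FPKM in controls (SD, n = 4 each; log2 change -0.72, adjusted p = 5.06e-07).

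AL161431.1, now named LINC03061, had the largest rise of any member in BxPC3. It lies on chr13:109269634-109278512, 61627 bases from MYO16. AL161431.1 had 3.8001, 4.53, 5.09 and 4.84 FPKM in the gemcitabine-treated PANC-1 libraries, against 3.65, 3.68, 3.40 and 3.81 FPKM in the PANC-1 controls. The RNA also had 22.1, 21.0, 19.996 and 20.03 FPKM in the gemcitabine-treated BxPC3 libraries, against 4.06, 4.26, 4.26 and 4.27 FPKM in the BxPC3 controls. The BxPC3 groups were 4.93 times apart with no overlap (log2 change 2.06, adjusted p = 2.03e-10), from 14022 reads with gemcitabine and 2848 in controls. In PANC-1 the lowest treated library lay below the highest control, and that call (log2 change 0.26, adjusted p = 0.0272) was lost without gemcitabine replicate 2, 3 or 4 or control replicate 1, 2 or 3. The difference between the lines was the largest of any member (difference -1.803 ± 0.09 (SE), adjusted p = 1.13e-10).

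AC015912.3, a single-exon RNA of 348 bases, starts 106 bases from TRIM25, the gene of a ubiquitin ligase that activates the RNA sensor RIG-I. AC015912.3 had 2.25, 2.55, 2.48 and 2.68 FPKM in the gemcitabine-treated PANC-1 libraries, against 1.24, 1.38, 1.10 and 1.05 FPKM in the PANC-1 controls. Its BxPC3 levels were 2.197, 2.86, 3.11 and 3.02 FPKM in the gemcitabine-treated BxPC3 libraries, against 0.719, 0.8286, 0.617 and 1.23 FPKM in the BxPC3 controls. All treated libraries lay above all controls in both lines (log2 changes 0.67 and 1.04, adjusted p = 6.2e-05 and 1.3e-05), though the counts were small, at 95 against 41 reads in PANC-1 and 129 against 40 in BxPC3. TRIM25 rose too, with 24.8 ± 0.873 FPKM with gemcitabine and 16.2 ± 0.113 FPKM in controls (SD, n = 4 each; log2 change 0.58, adjusted p = 2.42e-05) in PANC-1. In BxPC3 TRIM25 had 12.6 ± 0.458 FPKM with gemcitabine and 8.74 ± 0.741 FPKM in controls (SD, n = 4 each; log2 change 0.49, adjusted p = 2.73e-05). RASAL2-AS1 rose with RASAL2, the gene of a RAS GTPase-activating protein 157 bases away, with log2 changes of 0.49 and 0.66 in PANC-1 and 0.41 and 0.55 in BxPC3. In BxPC3 RASAL2-AS1 passed the level rule through its treated libraries alone, which fixed its rise there. AL365203.2 had log2 changes of 0.35 in PANC-1 and 0.65 in BxPC3 without overlap. AC092171.2, inside FBXL18 on the other strand, averaged 15.4 ± 2.33 FPKM with gemcitabine and 12.1 ± 0.458 FPKM in controls in PANC-1, where replicate 1 was at 18.9 FPKM and the other treated libraries between 14.1 and 14.2. That call (log2 change 0.31, adjusted p = 0.0269) was lost on leaving out any 1 of the 4 controls and was 0.21 (adjusted p = 0.000432) without replicate 1. In BxPC3 it averaged 14.2 ± 0.368 FPKM with gemcitabine and 10.001 ± 0.619 FPKM in controls, without overlap (log2 change 0.47, adjusted p = 7.45e-06). FBXL18, the gene of an F-box protein, rose in both lines as well, with log2 changes of 0.39 in PANC-1 and 0.93 in BxPC3.

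**Figure D3:**
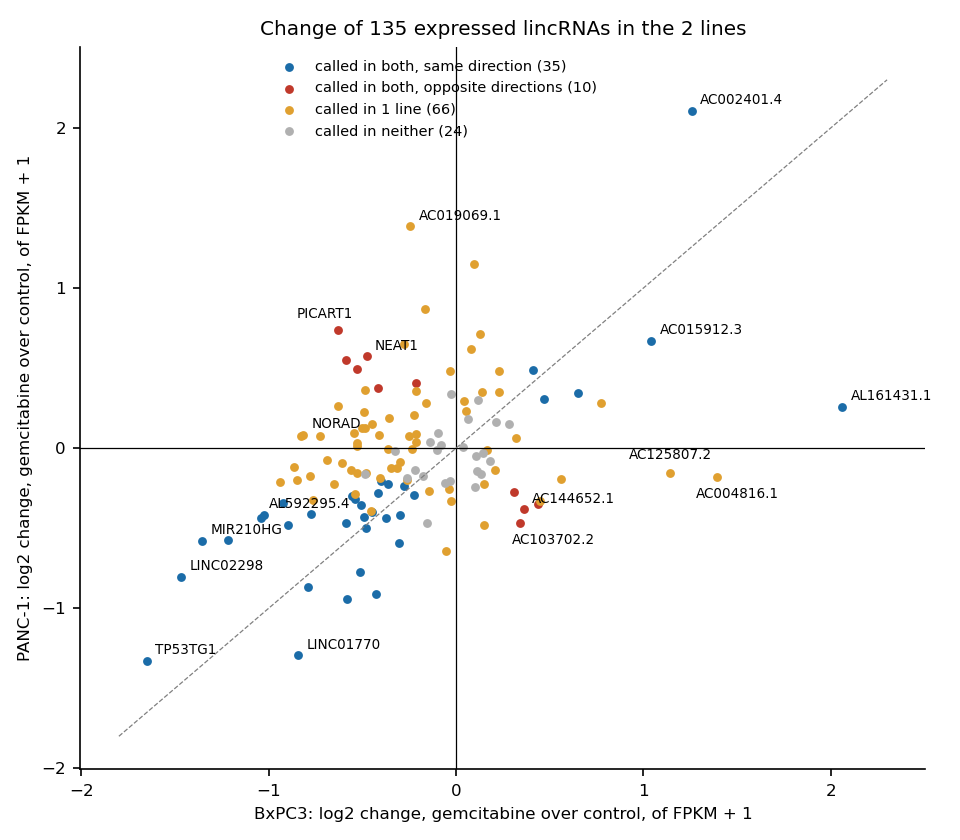
Log2 change of FPKM + 1, gemcitabine over control, in BxPC3 (x axis) and PANC-1 (y axis) for the 135 lincRNAs, 1 point per gene; blue points were called in both lines in the same direction (35), red in opposite directions (10), orange in 1 line (66) and grey in neither (24), and the dashed line marks equal changes. TP53TG1 lies lowest on both axes at -1.33 and -1.65, and NEAT1 and PICART1 lie in the upper left quadrant.

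In 10 members the lines were called in opposite directions, against 8.47% of the genes tested in both. TRAM2-AS1, FAM111A-DT, AC068870.2, NEAT1, HCG11 and PICART1 rose in PANC-1 and fell in BxPC3. AC103702.2, LINC02001, AC144652.1 and LINC01089 fell in PANC-1 and rose in BxPC3. AC068870.2, LINC02001 and LINC01089 were named after their values were seen. Over all members the difference between the lines, PANC-1 minus BxPC3, was called positive for 51 and negative for 22, where 25.4% and 26.7% of the 14053 genes tested were positive and negative (52.1% called in all). A log2 difference of at least 1 was called positive for 7 members and negative for 3, against 4.61% and 3.16% of all genes.

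NEAT1 builds the paraspeckle, a nuclear body that holds back proteins and edited RNAs, and MALAT1, its neighbour 52147 bases downstream, gathers in nuclear speckles beside splicing factors. The mature end of MALAT1 and that of the long NEAT1 form carry no poly-A tail, and these libraries were poly-A enriched. NEAT1 had 11.7, 13.2, 13.4 and 12.9 FPKM in the gemcitabine-treated PANC-1 libraries, against 8.29, 7.94, 8.07 and 8.68 FPKM in the PANC-1 controls. Its BxPC3 values were 10.2, 10.6, 10.7 and 9.86 FPKM in the gemcitabine-treated BxPC3 libraries, against 15.7, 14.5, 14.9 and 13.99 FPKM in the BxPC3 controls. The groups were apart in both lines and ran in opposite directions, so that the FPKM of the lines were closer to each other in treated libraries than in controls (log2 changes 0.58 in PANC-1 and -0.48 in BxPC3, adjusted p = 8.4e-05 and 4.29e-06; difference 1.05 ± 0.07 (SE), adjusted p = 6.01e-09). MALAT1 had 6.13, 9.92, 12.6 and 15.7 FPKM in the gemcitabine-treated PANC-1 libraries, against 8.45, 14.3, 9.81 and 10.9 FPKM in the PANC-1 controls. It had 7.43, 8.08, 13.2 and 9.73 FPKM in the gemcitabine-treated BxPC3 libraries, against 14.5, 16.02, 9.87 and 9.05 FPKM in the BxPC3 controls. MALAT1 varied more than 2-fold between replicates of the treated PANC-1 group, the groups overlapped in both lines, and neither change was called (log2 changes -0.02 and -0.33, SE 0.25 and 0.22, adjusted p = 0.968 and 0.207).

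PICART1 lies on chr17:50050349-50055739 and starts 229 bases from ITGA3, the gene of the integrin alpha 3 subunit. PICART1 had 1.74, 1.39, 1.53 and 1.47 FPKM in the gemcitabine-treated PANC-1 libraries, against 0.465, 0.569, 0.420 and 0.641 FPKM in the PANC-1 controls. The levels were 1.98, 2.19, 1.92 and 1.58 FPKM in the gemcitabine-treated BxPC3 libraries, against 3.91, 3.26, 3.37 and 3.49 FPKM in the BxPC3 controls. Groups did not overlap in either line, in PANC-1 by the level rule, which the gene passed there through its treated libraries (log2 changes 0.73 and -0.63, adjusted p = 3.92e-05 and 2.15e-05; difference 1.36 ± 0.10 (SE), adjusted p = 1.11e-08). The treated libraries of both lines were between 1.39 and 2.19 FPKM, against 0.420 to 0.641 FPKM in PANC-1 controls and 3.26 to 3.91 FPKM in BxPC3 controls. ITGA3 had 147 ± 31.5 FPKM with gemcitabine and 48.8 ± 3.05 FPKM in controls (SD, n = 4 each; log2 change 1.55, adjusted p = 2.07e-05) in PANC-1, and its log2 change without replicate 1 was 1.41. In BxPC3 ITGA3 had 126 ± 3.61 FPKM with gemcitabine and 151 ± 6.13 FPKM in controls (SD, n = 4 each; log2 change -0.27, adjusted p = 0.00029). The window of PICART1 from RefSeq, chr17:50055690-50055989 on the minus strand of GRCh38.p14, is shown for its start next to ITGA3; capitals mark the 2 boxes above and CCGGAAG, the site of ETS factors.
PICART1: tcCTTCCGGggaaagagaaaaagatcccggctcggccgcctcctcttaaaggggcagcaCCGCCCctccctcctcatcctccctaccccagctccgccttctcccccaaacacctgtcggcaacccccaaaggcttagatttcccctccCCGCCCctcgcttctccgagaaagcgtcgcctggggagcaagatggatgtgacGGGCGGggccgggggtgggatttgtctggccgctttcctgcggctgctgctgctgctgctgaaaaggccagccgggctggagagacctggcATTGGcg
It held 3 GC boxes, at positions 60, 150 and 203, 1 CCAAT box at 294 and 1 ETS site at 3.

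The other members of this group had smaller changes. HCG11, a gene of the extended major histocompatibility region, averaged 2.34 ± 0.229 FPKM with gemcitabine and 1.28 ± 0.0871 FPKM in controls in PANC-1 and 2.03 ± 0.117 FPKM with gemcitabine and 3.56 ± 0.178 FPKM in controls in BxPC3, without overlap (difference 1.14 ± 0.08 (SE), adjusted p = 3.76e-09). FAM111A-DT starts 267 bases from FAM111A, the gene of a protease that acts at replication forks, and shares 123 exon bases with it. It averaged 1.55 ± 0.174 FPKM with gemcitabine and 0.961 ± 0.0663 FPKM in controls in PANC-1 and 1.31 ± 0.170 FPKM with gemcitabine and 2.07 ± 0.141 FPKM in controls in BxPC3, without overlap (difference 0.79 ± 0.09 (SE), adjusted p = 1.34e-06). FAM111A rose in both lines, with log2 changes of 1.09 in PANC-1 and 0.24 in BxPC3, so the pair moved apart in BxPC3. TRAM2-AS1, chosen after its values were seen, did the same, with log2 changes of 0.41 in PANC-1 and -0.22 in BxPC3 against 0.72 and 1.246 for TRAM2. AC103702.2, now LINC03057, lies 2351 bases from HOXB7 and averaged 10.1 ± 0.426 FPKM with gemcitabine and 14.4 ± 1.66 FPKM in controls in PANC-1 and 5.10 ± 0.109 FPKM with gemcitabine and 3.82 ± 0.442 FPKM in controls in BxPC3, without overlap (difference -0.81 ± 0.11 (SE), adjusted p = 1.02e-05). HOXB7, a homeobox gene, fell in both lines, with log2 changes of -0.44 in PANC-1 and -0.28 in BxPC3. AC144652.1, now INSIG1-DT, starts 235 bases from the sterol sensor gene INSIG1 and had log2 changes of -0.38 in PANC-1 and 0.36 in BxPC3, with an overlap in BxPC3. LINC02001, named SNHG30 in current naming, holds the snoRNA gene SNORD7 and had log2 changes of -0.35 and 0.44.

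Some of the largest changes were called in 1 line, and for those given here the difference between lines was called as well. In PANC-1, AC019069.1, now HK2-DT, starts 6 bases from HK2, the gene of the glycolytic enzyme hexokinase 2, and shares 7 exon bases with it. AC019069.1 had 2.93, 3.38, 3.50 and 3.52 FPKM in the gemcitabine-treated PANC-1 libraries, against 0.442, 0.660, 0.702 and 0.852 FPKM in the PANC-1 controls. Its level was 2.71, 2.71, 2.12 and 3.83 FPKM in the gemcitabine-treated BxPC3 libraries, against 2.79, 4.61, 3.43 and 3.33 FPKM in the BxPC3 controls. The gene passed the level rule in PANC-1 through its treated libraries alone, which were 5.02 times the controls and near the BxPC3 level, where the groups overlapped (log2 changes 1.38 and -0.24, adjusted p = 4e-06 and 0.149; difference 1.63 ± 0.18 (SE), adjusted p = 1.34e-06). HK2 rose in PANC-1, with 8.10 ± 0.507 FPKM with gemcitabine and 1.68 ± 0.0797 FPKM in controls (SD, n = 4 each; log2 change 1.76, adjusted p = 1.28e-07). In BxPC3, where AC019069.1 was not called, HK2 rose too, with 17.2 ± 0.850 FPKM with gemcitabine and 13.1 ± 0.448 FPKM in controls (SD, n = 4 each; log2 change 0.37, adjusted p = 2.98e-05). The RefSeq window at chr2:74833938-74834237 (GRCh38.p14, minus strand) is printed because this pair had the largest joint rise of the head-to-head pairs in PANC-1; capitals mark the GC and CCAAT boxes and ACGTG, the core bound by hypoxia-inducible and other basic helix-loop-helix factors.
HK2-DT: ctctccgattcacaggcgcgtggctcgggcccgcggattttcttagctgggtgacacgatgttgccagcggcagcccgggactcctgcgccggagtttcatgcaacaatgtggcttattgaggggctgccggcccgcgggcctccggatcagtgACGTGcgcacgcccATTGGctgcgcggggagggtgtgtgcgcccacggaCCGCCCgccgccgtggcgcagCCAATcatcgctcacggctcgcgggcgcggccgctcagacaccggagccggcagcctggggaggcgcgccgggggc
It held a GC box at position 204, CCAAT boxes at 169 and 225 and an ACGTG core at 155.

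Other members rose in PANC-1 without a call in BxPC3. AC027031.2, on chromosome 8 and 86577 bases from OXR1, had 3.15, 3.73, 3.04 and 3.18 FPKM in the gemcitabine-treated PANC-1 libraries, against 0.913, 0.761, 0.659 and 1.43 FPKM in the PANC-1 controls. Every treated library was above every control (log2 change 1.15, adjusted p = 7.07e-05), against a log2 change of 0.10 in BxPC3. AC079921.2, 7056 bases from KLHL5 on the same strand, averaged 7.37 ± 0.509 FPKM with gemcitabine and 3.63 ± 0.762 FPKM in controls in PANC-1 (log2 change 0.87, adjusted p = 0.000403), and in BxPC3 it was at or under 1.18 FPKM in every library. AP006621.2 averaged 6.04 ± 0.668 FPKM with gemcitabine and 3.31 ± 0.600 FPKM in controls in PANC-1 from 187 and 93 reads, and AC020910.4, which starts 318 bases from the zinc finger gene ZNF181, averaged 2.94 ± 0.467 FPKM with gemcitabine and 1.53 ± 0.510 FPKM in controls. Both had no overlap (log2 changes 0.71 and 0.65, adjusted p = 0.00081 and 0.00496). GS1-124K5.4 fell in PANC-1 (log2 change -0.64, adjusted p = 0.00583), with a log2 change of -0.06 in BxPC3.

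In BxPC3, AC004816.1, now MAP3K9-DT, rose with MAP3K9, the gene of a mixed-lineage kinase whose start is 671 bases away. AC004816.1 had 3.02, 3.15, 3.89 and 3.21 FPKM in the gemcitabine-treated PANC-1 libraries, against 4.33, 3.46, 3.27 and 4.59 FPKM in the PANC-1 controls. It had 20.2, 18.8, 20.3 and 22.3 FPKM in the gemcitabine-treated BxPC3 libraries, against 7.19, 7.97, 6.64 and 6.84 FPKM in the BxPC3 controls. The BxPC3 groups were wide apart and the PANC-1 groups overlapped (log2 changes -0.18 in PANC-1 and 1.39 in BxPC3, adjusted p = 0.195 and 2.71e-08; difference -1.57 ± 0.13 (SE), adjusted p = 3.63e-08). MAP3K9 had 7.53 ± 0.764 FPKM with gemcitabine and 4.62 ± 0.421 FPKM in controls (SD, n = 4 each; log2 change 0.60, adjusted p = 4.39e-05) in BxPC3. AC125807.2, a single-exon RNA of 3514 bases, begins 764 bases past the end of TEAD4, the DNA-binding partner of YAP, on the same strand. AC125807.2 had 8.90, 8.67, 8.33 and 7.37 FPKM in the gemcitabine-treated BxPC3 libraries, against 3.52, 2.601, 3.27 and 3.52 FPKM in the BxPC3 controls. TEAD4 rose by nearly the same log2 change, at 1.11 against 1.14 for AC125807.2, and reads running past the end of TEAD4 cannot be told apart from a separate RNA in these tables. AC125807.2 in PANC-1 had a log2 change of -0.16 (difference -1.30 ± 0.13 (SE), adjusted p = 4.8e-07). Without replicate 1 it was called lower there (-0.23, adjusted p = 0.0205), and so in the opposite direction to BxPC3.

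Among the more highly expressed members the lines differed as well. AP005233.2, 3737 bases from MYEOV on chromosome 11, had 10.3, 10.5, 13.1 and 13.3 FPKM in the gemcitabine-treated BxPC3 libraries, against 19.8, 24.1, 20.7 and 22.02 FPKM in the BxPC3 controls. No treated library overlapped a control (log2 change -0.83, adjusted p = 1.76e-05), while MYEOV rose in BxPC3 (log2 change 0.40) and AP005233.2 in PANC-1 had a log2 change of 0.08. AC015922.2 averaged 15.8 ± 2.14 FPKM with gemcitabine and 12.9 ± 1.254 FPKM in controls in PANC-1, where it was called higher without replicate 1 (0.36, adjusted p = 0.000636). In BxPC3 it averaged 5.18 ± 1.12 FPKM with gemcitabine and 8.43 ± 0.417 FPKM in controls (log2 change -0.63, adjusted p = 0.000915). AC026401.3, inside NDE1 on its strand, was the member with the second highest mean in BxPC3, at 17.7 ± 1.43 FPKM with gemcitabine and 18.1 ± 1.12 FPKM in controls, with a log2 change of -0.03 (adjusted p = 0.675). In PANC-1 it was called higher without replicate 1 (0.45, adjusted p = 0.000984). NDE1 was also called higher there without replicate 1 (0.38, adjusted p = 2.93e-05). Reads of unspliced NDE1 RNA cannot be told apart from a separate RNA in these tables. AC084018.1 rose in BxPC3 (log2 change 0.56, adjusted p = 0.000875) with RHOF, but 210 of its exon bases lie in RHOF on the other strand. AC006504.5 had a log2 change of -0.14 in PANC-1, not called with all libraries and called lower without replicate 1 (-0.13, adjusted p = 0.0392), and rose in BxPC3 (log2 change 0.21, adjusted p = 0.00192; difference -0.35 ± 0.06 (SE), adjusted p = 0.000123). The rise of AC006504.5 in BxPC3 was fixed by the level rule, which it passed there through its treated libraries alone.

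**Figure D4:**
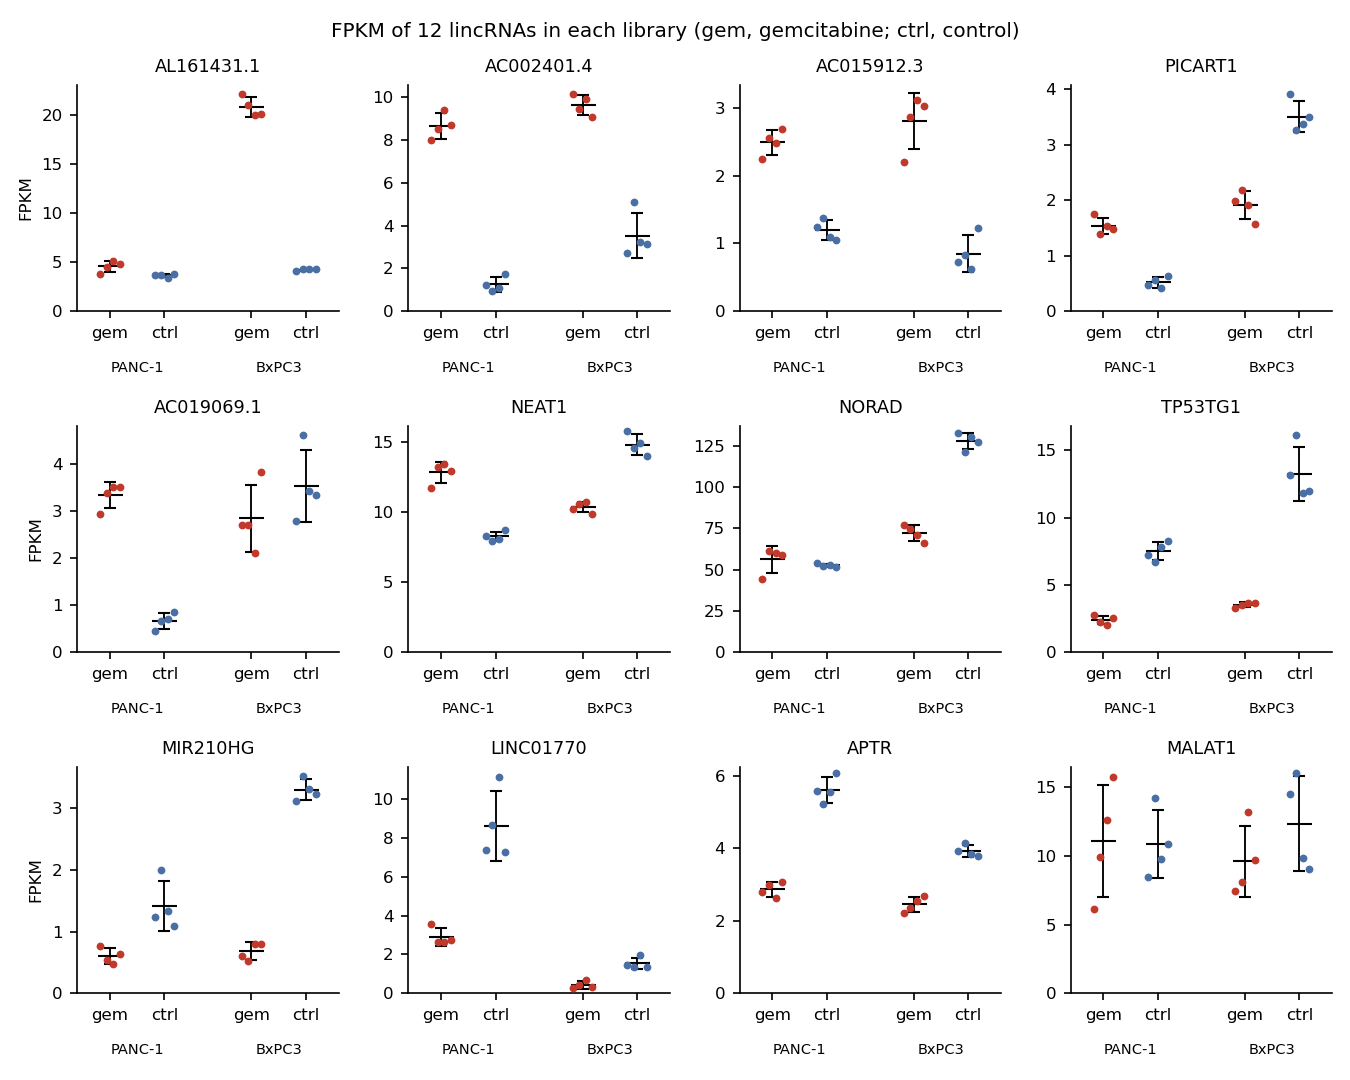
FPKM of 12 lincRNAs in each library, 1 panel per gene with its own y axis from 0; points are libraries, bars the mean ± SD of 4, red gemcitabine (gem) and blue control (ctrl), PANC-1 on the left and BxPC3 on the right of each panel. NEAT1 and PICART1 run in opposite directions in the lines, TP53TG1 and APTR fall in both, and the MALAT1 groups overlap.

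The microRNA host genes among the members changed in different directions. Of 27 host genes looked up, 4 were members, of which MIR210HG, MIR22HG and MIR4435-2HG are given first. NEAT1, described above, was not among those looked up but also holds a microRNA gene, MIR612. MIR210HG, on chr11:565660-568457, carries miR-210, a microRNA induced by hypoxia. MIR210HG had 0.773, 0.545, 0.473 and 0.629 FPKM in the gemcitabine-treated PANC-1 libraries, against 1.24, 1.9999, 1.34 and 1.08 FPKM in the PANC-1 controls. The host had 0.606, 0.526, 0.806 and 0.805 FPKM in the gemcitabine-treated BxPC3 libraries, against 3.13, 3.53, 3.32 and 3.24 FPKM in the BxPC3 controls. Treated libraries of both lines were at 0.473 to 0.806 FPKM and below every control, which the level rule fixed, since the gene passed it in both lines through its controls alone. Controls were higher in BxPC3 (log2 changes -0.58 and -1.36, adjusted p = 0.00329 and 4.35e-08; difference 0.78 ± 0.14 (SE), adjusted p = 0.000164). Its RefSeq window, chr11:568408-568707 on the minus strand of GRCh38.p14, is printed with the GC box, CCAAT and ACGTG in capitals.
MIR210HG: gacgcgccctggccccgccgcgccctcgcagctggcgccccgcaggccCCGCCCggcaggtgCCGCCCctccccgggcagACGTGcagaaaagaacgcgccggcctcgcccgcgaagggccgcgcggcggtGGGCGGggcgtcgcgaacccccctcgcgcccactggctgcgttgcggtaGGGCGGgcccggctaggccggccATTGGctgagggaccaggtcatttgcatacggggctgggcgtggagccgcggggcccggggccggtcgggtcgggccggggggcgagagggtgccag
It held 4 GC boxes, at positions 49, 63, 132 and 181, a CCAAT box at 204 and an ACGTG core at 81.

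MIR22HG carries miR-22 in its transcript and MIR4435-2HG carries miR-4435. MIR22HG had 5.996, 6.49, 6.45 and 5.73 FPKM in the gemcitabine-treated PANC-1 libraries, against 4.497, 5.09, 4.75 and 5.03 FPKM in the PANC-1 controls. The treated PANC-1 libraries lay above the controls (log2 change 0.29, adjusted p = 0.00448), and in BxPC3 the groups overlapped at 8.67 ± 0.271 FPKM with gemcitabine and 8.42 ± 0.639 FPKM in controls (log2 change 0.04, adjusted p = 0.489). MIR4435-2HG had 1.93, 2.13, 2.26 and 2.17 FPKM in the gemcitabine-treated PANC-1 libraries, against 0.978, 1.12, 1.02 and 1.004 FPKM in the PANC-1 controls. It rose in PANC-1 (2.06 times, log2 change 0.62, adjusted p = 3.07e-05) and averaged 1.99 ± 0.147 FPKM with gemcitabine and 1.83 ± 0.0661 FPKM in controls in BxPC3 (log2 change 0.08, adjusted p = 0.15). It overlaps BCL2L11, the gene of the cell death protein BIM, on the other strand, and also the protein-coding gene ACOXL. It shares 727 exon bases with protein-coding genes, which were not assigned to either gene. In the mouse, the RNA at this place is known as Morrbid and represses the BIM gene in myeloid cells. BCL2L11 fell in PANC-1, with 3.17 ± 0.464 FPKM with gemcitabine and 5.18 ± 0.298 FPKM in controls (SD, n = 4 each; log2 change -0.57, adjusted p = 0.000807). It also fell in BxPC3, where MIR4435-2HG was not called, with 1.93 ± 0.0929 FPKM with gemcitabine and 2.52 ± 0.119 FPKM in controls (SD, n = 4 each; log2 change -0.26, adjusted p = 0.000387).

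The libraries measure host transcripts and not the mature microRNAs, whose sequences are given to show what each host encodes. They are from RefSeq, 5′ to 3′, with the seed (bases 2 to 8), which pairs with target messages, in capitals.
miR-210-3p: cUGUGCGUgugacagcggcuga
miR-210-5p: aGCCCCUGcccaccgcacacug
miR-22-3p: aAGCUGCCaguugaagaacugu
miR-22-5p: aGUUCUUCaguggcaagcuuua
miR-4435: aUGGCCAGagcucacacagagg
The 5 seeds all differ, so the host genes that rose in PANC-1 (MIR22HG, MIR4435-2HG) and the one that fell (MIR210HG) encode microRNAs of separate seed families.

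PVT1, the remaining member of that list, lies 53099 bases from MYC on the same strand and is often co-amplified with MYC in tumours. PVT1 averaged 6.10 ± 0.253 FPKM with gemcitabine and 6.83 ± 0.435 FPKM in controls in PANC-1 and 1.18 ± 0.0937 FPKM with gemcitabine and 1.02 ± 0.101 FPKM in controls in BxPC3 and was called in neither (log2 changes -0.14 and 0.11, adjusted p = 0.095 and 0.0935). The difference was called (difference -0.25 ± 0.08 (SE), adjusted p = 0.0117), and PVT1 was called lower in PANC-1 without replicate 1 (-0.15, adjusted p = 0.0222).

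Well-known RNAs of cancer and of nuclear bodies were mostly below the level rule or of another biotype. Of 10 nuclear body and chromatin RNAs looked up, 2 were members (MALAT1, NEAT1), of 25 RNAs linked to cancer growth or invasion 1 (PVT1), and of 13 with a described peptide or cis role none. UCA1, for example, had at most 0.0165 FPKM in PANC-1 and 3.84 FPKM in BxPC3, and MEG3 at most 8.47 FPKM in PANC-1 and 0.00154 FPKM in BxPC3.

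Many members that start head to head with a protein-coding gene changed in the same direction as that gene. Each member was paired with its nearest protein-coding gene only. Members whose head-to-head gene was not their nearest, such as LINC01089, were left out of the head-to-head pairs. Across 43 head-to-head pairs tested in PANC-1, the Spearman correlation of the 2 log2 changes was 0.60, and 12 of the 13 pairs with both genes called went the same way. Without replicate 1 these values were 0.60 and 17 of 19. Across 41 such pairs in BxPC3 the correlation was 0.38, and 15 of 23 pairs with both genes called went the same way. For neighbours within 100 kb that were not head to head, the correlation was 0.20 over 63 pairs in PANC-1 and 0.13 over 64 in BxPC3, and 10 of 13 and 18 of 32 pairs with both genes called went the same way. The 1 head-to-head pair that went opposite ways in PANC-1 was BAIAP2-DT and BAIAP2. Some lincRNAs of these pairs passed the level rule through 1 treatment group only, such as AC019069.1 and PICART1 in PANC-1. LINC01770 and RASAL2-AS1 in BxPC3 are further cases. The direction of such a member was fixed by the rule, and its pair was not left out of the counts. These are descriptions over pairs that share libraries, with no test of the difference between kinds of pair. Leaving out pairs with shared exon bases gave 0.53 over 38 pairs in PANC-1 and 0.39 over 37 in BxPC3.

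**Figure D5:**
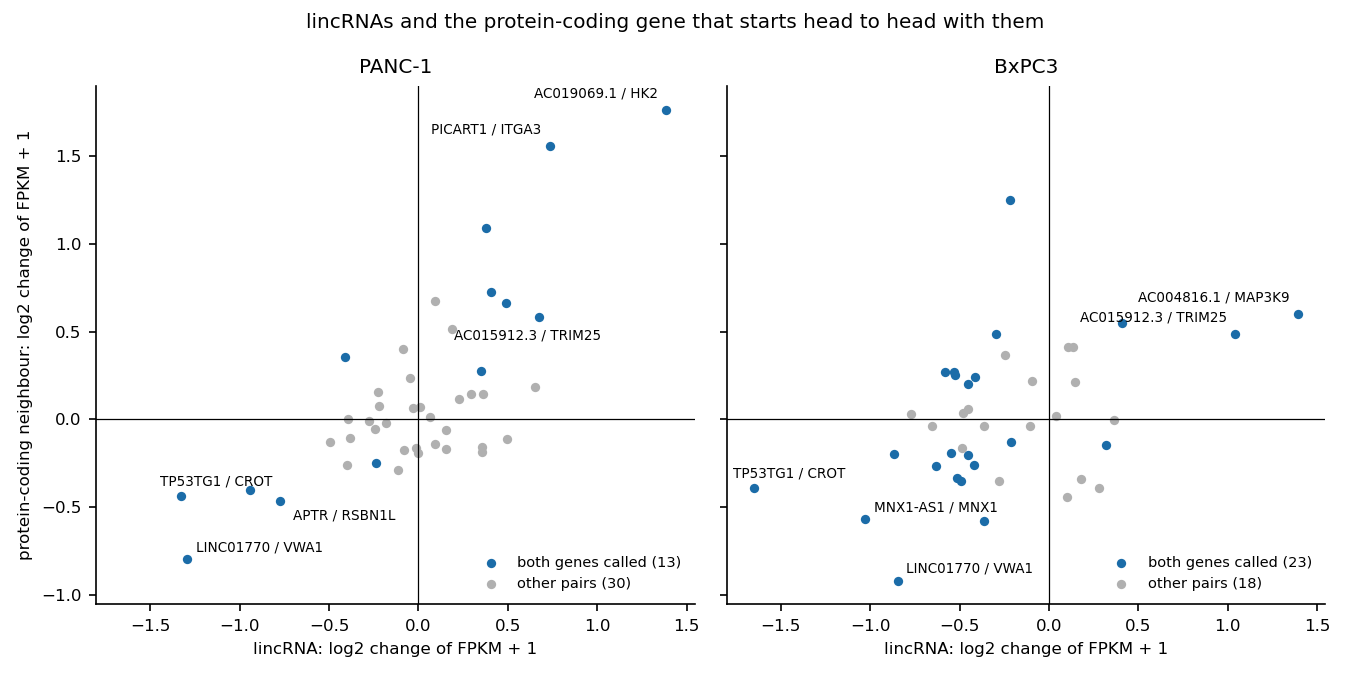
Log2 change of FPKM + 1, gemcitabine over control, of lincRNAs (x axis) and of the protein-coding gene that starts head to head with them (y axis), 1 point per pair, in PANC-1 (left, 43 pairs) and BxPC3 (right, 41 pairs); blue pairs had both genes called. In PANC-1 AC019069.1 with HK2 and PICART1 with ITGA3 lie at the upper right, and in both lines LINC01770 with VWA1 lies at the lower left. The level rule fixed the direction of AC019069.1 and PICART1 in PANC-1 and of LINC01770 in BxPC3.

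Some neighbours of members went the other way. In BxPC3, LINC02298 fell while GPR132, a receptor gene 28164 bases away, rose, with 4.52 ± 0.0602 FPKM with gemcitabine and 2.63 ± 0.172 FPKM in controls (SD, n = 4 each; log2 change 0.61, adjusted p = 8.17e-07). LINC01836 fell there while PTBP1, the gene of a splicing repressor 11995 bases away on the same strand, rose, with 95.4 ± 2.47 FPKM with gemcitabine and 54.5 ± 2.82 FPKM in controls (SD, n = 4 each; log2 change 0.80, adjusted p = 1.28e-07). LINC02035 and its neighbour DIRC2, 5802 bases away, both fell in BxPC3, DIRC2 with 8.43 ± 0.254 FPKM with gemcitabine and 12.2 ± 0.395 FPKM in controls (SD, n = 4 each; log2 change -0.49, adjusted p = 1.22e-06).

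A promoter window was found in RefSeq for 63 members, 35 of them head to head, under their deposited or current symbol. The window covers 250 bases before to 50 after the start, and motifs were searched on both strands. GGGCGG was in 45 of the 63 windows (71.4%) and in 45.0% of all 35116 windows, CCAAT in 31 (49.2%) and 34.6%, and ACGTG in 20 (31.7%) and 21.4%. CCGGAAG was in 10 (15.9%) and 10.3%, and the NRF1 site, with 1 base left free, in 9 (14.3%) and 5.78%. The median GC content of the members' windows was 67.7%, against 58.7% for all windows, and its part in these shares was not tested. A match is a string of letters and not evidence of binding.

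Members also lay next to each other, and 12 pairs were within 100 kb. In BxPC3 both genes were called in 5 of these pairs and went the same way in 3, and in PANC-1 both were called in 1, which went the same way. That pair is PICART1 and AC002401.4 on chromosome 17, 38325 bases apart, both of which rose in PANC-1, while in BxPC3 PICART1 fell and AC002401.4 rose. The level rule fixed the rise of PICART1 in PANC-1. In BxPC3 it fixed the fall of both AL592295.4 and AL831711.1, a pair counted as going the same way. These counts were not compared with other pairs of genes. AC092171.5, also named after its values were seen, fell in BxPC3 (log2 change -0.85) while AC092171.2, 46131 bases away on the same strand, rose.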

How the data were processed

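Poly-A enriched RNA of 2 pancreatic cancer cell lines was sequenced in 16 libraries, 4 per group, and the authors deposited 1 table of FPKM values per line, made with CASAVA and HISAT2 per the submitters' processing notes, which give no versions. Those notes name the genome build mm10, but all 58735 gene records carry human identifiers with the starts, ends and exon lengths of GENCODE release 29 on GRCh38, which was used for positions. With gene length, the FPKM values converted to whole reads (within 0.02), from which depth was taken. The tables of the lines were normalized separately, so levels are only set side by side across them. Whether counting used strand is not stated by any source used here, and 0 columns were left unmapped.

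Log2(FPKM + 1) was fitted per line with limma 3.58.1 (trend and robust, R 4.3.3) over genes at 1 FPKM or more in at least 4 of 8 libraries, and over both lines with an interaction term for the difference. Adjusted p-values are Benjamini-Hochberg values over all genes tested, two-sided, with a threshold of 0.05. Groups followed the labels. Replicates differed beyond sampling noise, and no paired design was used because same-numbered libraries did not deviate together in every pair. The scripts were tested on simulated data. Members, gene lists and named genes were chosen with earlier results of these data known. Named were, per line, the 8 members with the largest called changes without overlap in each direction and the 8 with the highest mean, the 6 with the smallest adjusted p of the difference in each direction, members of the role lists, their nearest protein-coding genes, those next to the level threshold, and others where the text says so. Promoter windows and mature microRNAs are from RefSeq on GRCh38.p14, and motifs were searched on both strands. Alternatives covered the pseudocount, the filters, scaling, GC content, recovered reads, the replicate block and leaving out each library.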

Additional observations from a re-analysis of the deposited data

Results flagged for a closer look

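Single libraries lay far from the other 3 of their group in 13 of 176 groups of 4 (44 named lincRNAs in 4 groups), with a gap above Dixon's 95% limit for the group's range, where chance gives about 1 in 20 groups. PANC-1 gemcitabine replicate 1, the library that stood apart by GC content, was the outlying library in 5 of them. In that library AC092171.2 was at 18.9 FPKM, BAIAP2-DT was at 12.2 FPKM, EBLN3P was at 12.5 FPKM, LINC01770 was at 3.57 FPKM and NORAD was at 44.4 FPKM. The others in PANC-1 were 1.80 FPKM of AC006504.5 in gemcitabine replicate 4 and 3.69 FPKM of LINC02298 in control replicate 4. The others in BxPC3 were 19.8 FPKM of AC026401.3 in control replicate 2, 1.85 FPKM of AC027031.2 in gemcitabine replicate 1, 4.06 FPKM of AL161431.1 in control replicate 1, 12.1 FPKM of LINC02298 in control replicate 2, 2.21 FPKM of MIR4435-2HG in gemcitabine replicate 1 and 1.73 FPKM of MIR4435-2HG in control replicate 2. All of these libraries were kept in the values above.

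The change with gemcitabine differed between the lines, by the interaction term of limma, for 39 of the 44 named lincRNAs, given here as PANC-1 minus BxPC3 on the log2(FPKM + 1) scale. Among genes called in opposite directions the difference was -0.81 for AC103702.2, -0.74 for AC144652.1, 0.79 for FAM111A-DT, 1.05 for NEAT1, 1.14 for HCG11 and 1.36 for PICART1. Among genes that fell in both lines it was -0.49 for AL132712.1, -0.45 for LINC01770, -0.26 for APTR, 0.32 for TP53TG1, 0.36 for BAIAP2-DT, 0.58 for LINC00847, 0.60 for AL592295.4, 0.61 for MNX1-AS1, 0.64 for LINC02035, 0.67 for LINC02298 and 0.78 for MIR210HG, a positive value meaning the larger fall in BxPC3. Among genes that rose in both it was -1.803 for AL161431.1, -0.37 for AC015912.3, -0.31 for AL365203.2 and 0.85 for AC002401.4. Among genes called in 1 line it was -1.57 for AC004816.1, -1.30 for AC125807.2, -0.75 for AC084018.1, -0.59 for GS1-124K5.4, -0.35 for AC006504.5, 0.25 for MIR22HG, 0.54 for MIR4435-2HG, 0.59 for AP006621.2, 0.73 for AL831711.1, 0.89 for AC015922.2, 0.90 for NORAD, 0.90 for AP005233.2, 0.93 for AC020910.4, 1.04 for AC079921.2, 1.05 for AC027031.2 and 1.63 for AC019069.1. Neither line alone was called for PVT1 and AC026401.3, with differences of -0.25 and 0.37. The named lincRNAs were partly chosen for this difference, so their number says nothing of the other members. For LINC01770 the sign turned with a smaller pseudocount or the recovered reads, so no direction can be drawn from it. AC019069.1, PICART1, MIR210HG, AL132712.1, LINC01770, AL592295.4, AL831711.1 and AC006504.5 passed the level rule in at least 1 line through 1 treatment group only. Their groups had to differ in that line, so their differences between lines are a description.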

How the results depend on the processing

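The counts of called members varied between the alternatives by the amounts given here. Asking for a log2 change of at least 1 left 3 higher and 2 lower members in PANC-1, 5 higher and 6 lower in BxPC3, and 7 higher and 3 lower for the difference. A member rule at 0.5 FPKM gave 30 higher in BxPC3, and one at 1 FPKM in all libraries gave 12 higher in PANC-1 and 44 lower in BxPC3, by taking in more or fewer genes. TPM scaling moved the BxPC3 split to 26 higher and 70 lower, and limma-voom on recovered reads gave 24 and 38 in PANC-1 and 19 and 72 in BxPC3. Leaving out each library gave 22 to 35 higher and 31 to 52 lower in PANC-1, 18 to 22 and 71 to 75 in BxPC3, and 46 to 59 and 15 to 26 for the difference, with the PANC-1 maxima without gemcitabine replicate 1. With the GC trend removed, PANC-1 had 30 higher and 49 lower. With no filter, PANC-1 had 22 higher and 28 lower, and BxPC3 had 16 and 68. The shares of all genes called moved as well without gemcitabine replicate 1, to 32.8% higher and 37.0% lower in PANC-1. TPM scaling moved the median log2 change of all BxPC3 genes from 0.004 to 0.086. For most other alternatives shares of all genes were not taken, so those counts cannot be compared with all genes. The replicate block gave 24 higher and 32 lower in PANC-1, 17 and 75 in BxPC3, and 45 and 20 for the difference; the replicate numbers did not pair the libraries. Neighbour pairs in PANC-1 called in the same direction were 35 of 49 pairs with both genes called without gemcitabine replicate 1 and 22 of 26 with it, a choice made after seeing the data. The difference for LINC01770 turned to 0.19 with a pseudocount of 0.1 and 0.37 with limma-voom, since its FPKM ratio fell more in BxPC3. Of the changes of the named genes over all alternatives, 673 in PANC-1, 692 in BxPC3 and 972 for the difference kept direction and call, while 9, 8 and 4 gained a call and 22, 4 and 78 lost it. The difference for TP53TG1 lost its call in 16 settings, and those for AC026401.3 and GS1-124K5.4 in 13 each, LINC01770 in 12 besides the 2 above (adjusted p = 0.623 and 0.450), AC015912.3 in 10 and AL132712.1 in 9. Without PANC-1 gemcitabine replicate 1 the difference was not called for TP53TG1 (0.27, adjusted p = 0.0628) and was called for AC092171.2 (-0.26, adjusted p = 0.00117). Depth limits the members of few reads, such as AL831711.1 with 16 reads over 4 treated BxPC3 libraries.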
